A study of Mus musculus with 4 samples.

Results

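The 40 genes described here encode the ligands, receptors and core transducers of WNT signalling: 19 WNT ligands, 10 Frizzled receptors, the co-receptors Lrp5 and Lrp6, Kremen1, the 3 Dishevelled proteins, the destruction complex members Axin1, Axin2, Apc and Gsk3b, and beta-catenin (Ctnnb1). Their chromatin was profiled by ATAC-seq (a transposase cuts accessible DNA and tags it for sequencing). The source was sorted hair follicle stem cells of back skin at postnatal day 70, the second telogen (resting phase of the hair cycle). The cells came from 2 male dKO mice (numbers 14 and 16), which carried Sox9-CreER with floxed NFIB and NFIX alleles and a floxed R26-YFP reporter, and from 2 male WT mice (numbers 13 and 15), which carried the same floxed alleles and reporter but no Cre. Cre therefore acts in Sox9-expressing cells, and its induction is not given in the sources used here. Sorted cells were DAPI and Sca-1 negative, integrin alpha 6 and CD34 positive, and dKO cells were also YFP positive, a marker the WT gate did not use. Peaks were deposited as 1 list for each genotype. A peak belonged to a gene when its summit lay nearest to that protein-coding gene body, within 100 kb, and overlapping dKO and WT peaks (1 bp or more) formed regions, each classed as dKO-only, WT-only or shared. By this rule the 40 genes held 276 of 70899 regions that lay near a gene, from 225 dKO and 239 WT peaks.

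WNT ligands are secreted, lipid-modified proteins that bind a Frizzled receptor together with LRP5 or LRP6. In the canonical branch this recruits Dishevelled and Axin to the membrane, stops the destruction complex (Axin, APC, GSK3 and casein kinase) from marking beta-catenin for breakdown, and lets beta-catenin act with TCF/LEF factors in the nucleus. In the hair follicle, WNT signalling is known for driving entry of resting bulge stem cells into hair growth and for hair fate, while in telogen the bulge is kept in a low-WNT state by inhibitors. NFIB and NFIX are nuclear factor I transcription factors, and comparing the genotypes addresses which accessible sites differ when both are lost.

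The dKO list held 63548 peaks and the WT list 68197. The median pileup at the summit, an unscaled number of reads or fragments deposited by the authors, was 38 in the dKO list and 73 in the WT list, and the lowest local background was 2.73 in dKO against 5.29 in WT, a WT to dKO ratio of 1.94. The lists are thus of different depth and peak heights were not compared between them: pileup, fold over local background and −log10 q are the authors' own values and describe a peak within its list. Because each genotype has 1 list, variation among mice is unknown and no difference below was tested. Intervals are 95% Wilson intervals of counting error. All 9 marker genes of hair follicle stem cells (such as Cd34, Sox9 and Lhx2) had a peak at their promoter or a gene end in both lists. The window was 300 bases at a RefSeq promoter or, for genes without one, 1 kb on either side of each gene end. Marker counts are thus at unlike widths and are not directly comparable between cell types. Of all genes with a promoter window, 57.3% had peaks of both lists over it. Of the other skin cell markers, interfollicular epidermis had 2 of 5 in each list (none at Ly6a, which encodes Sca-1), immune cells 1 of 3 in each, fibroblasts 2 of 3 in each, endothelium 1 of 3 in each, and melanocytes 2 of 3 in dKO and 3 of 3 in WT. The melanocyte gene without a dKO peak there was Dct. Its WT promoter peak belonged to a shared region, and the nearest dKO peak lay 71 bp from the window. By regions, the fibroblast markers had 1 dKO-only and 10 WT-only of 25, the immune markers 4 and 1 of 8, the epidermal markers 5 and 3 of 16, the endothelial markers 4 and 6 of 25, the melanocyte markers 5 and 10 of 41, and the stem cell markers 31 and 25 of 163, in the same order. The part of other cells in the results was not tested. In sorted pools a region open in fewer cells and a region less open in each cell cannot be told apart.

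The promoters that the results turn on are shown first. RefSeq promoter windows on GRCm38.p6, the assembly that mm10 names, were matched by symbol for 27 of the 40 genes. The 250 bases before the start are printed 5′ to 3′ on the gene's strand for Wnt2 and Wnt3, whose promoters had a peak in the dKO list alone, for Wnt4, the ligand with the most WT-only regions over dKO-only ones, whose promoter window had a peak in the WT list alone, for Wnt11, which carries a TCF/LEF motif, and for Axin2, a feedback target of the pathway. Capitals mark TTGGC, the core of the palindromic NFI motif, and the TCF/LEF motifs CTTTGAT and CTTTGAA, each searched on both strands.
Wnt2 (chr6:18030446-18030695, - strand): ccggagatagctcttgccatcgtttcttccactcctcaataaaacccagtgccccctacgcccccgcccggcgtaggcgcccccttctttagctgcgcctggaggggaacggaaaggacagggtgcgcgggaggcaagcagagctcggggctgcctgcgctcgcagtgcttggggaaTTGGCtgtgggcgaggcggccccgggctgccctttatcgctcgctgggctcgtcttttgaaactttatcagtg
Wnt3 (chr11:103773925-103774174, + strand): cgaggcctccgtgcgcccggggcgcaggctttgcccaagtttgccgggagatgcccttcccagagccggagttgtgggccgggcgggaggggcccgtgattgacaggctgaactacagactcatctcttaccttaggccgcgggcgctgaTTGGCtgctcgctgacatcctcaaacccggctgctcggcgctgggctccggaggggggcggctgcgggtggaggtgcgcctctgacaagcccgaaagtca
Wnt4 (chr4:137277385-137277634, + strand): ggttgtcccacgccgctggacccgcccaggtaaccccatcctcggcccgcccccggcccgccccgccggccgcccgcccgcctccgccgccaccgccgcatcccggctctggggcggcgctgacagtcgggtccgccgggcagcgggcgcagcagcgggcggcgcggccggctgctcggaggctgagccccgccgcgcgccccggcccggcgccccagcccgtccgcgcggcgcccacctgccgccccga
Wnt11 (chr7:98834862-98835111, + strand): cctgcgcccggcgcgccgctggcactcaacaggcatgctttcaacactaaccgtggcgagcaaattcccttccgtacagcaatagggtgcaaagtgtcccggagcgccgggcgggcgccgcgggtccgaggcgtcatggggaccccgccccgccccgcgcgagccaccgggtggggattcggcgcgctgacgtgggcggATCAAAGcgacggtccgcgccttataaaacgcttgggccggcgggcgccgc
Axin2 (chr11:108920099-108920348, + strand): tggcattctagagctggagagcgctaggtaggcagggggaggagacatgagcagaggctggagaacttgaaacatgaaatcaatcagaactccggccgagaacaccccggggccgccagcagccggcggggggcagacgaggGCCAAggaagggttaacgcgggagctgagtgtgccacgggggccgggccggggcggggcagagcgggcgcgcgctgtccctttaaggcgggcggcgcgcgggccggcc
The Wnt2, Wnt3 and Axin2 stretches each hold 1 TTGGC core, on the opposite strand in Axin2, the Wnt11 stretch holds 1 CTTTGAT on the opposite strand, and the Wnt4 stretch holds none of these letters.

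Over all 40 genes, most regions were open in both genotypes and the makeup was close to that of the whole series. Of 276 regions, 39 (14.1%, interval 10.5 to 18.7) were found in dKO alone, 58 (21.0%, 16.6 to 26.2) in WT alone and 179 (64.9%, 59.1 to 70.2) in both. Over all regions with a gene, the background was 12.8% dKO-only, 21.2% WT-only and 66% shared, so each share of the WNT genes lay near it. Every one of the 40 genes had at least 1 region, with a median of 5 per gene and a range of 1 to 27, whereas 15768 of 21887 protein-coding genes had any, with a median of 2 among those. The regions were unevenly spread along the stretch of genome nearest to each gene, which ran from 9.8 kb at Dvl2 to 206.4 kb at Apc: per 100 kb of that stretch there were 23.4 regions at Wnt10b, 20.3 at Wnt1, 19.6 at Wnt10a and 19.4 at Wnt7b, but 1.49 at Axin1, 1.54 at Wnt8b and 0.744 at Fzd8.

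**Figure D1:**
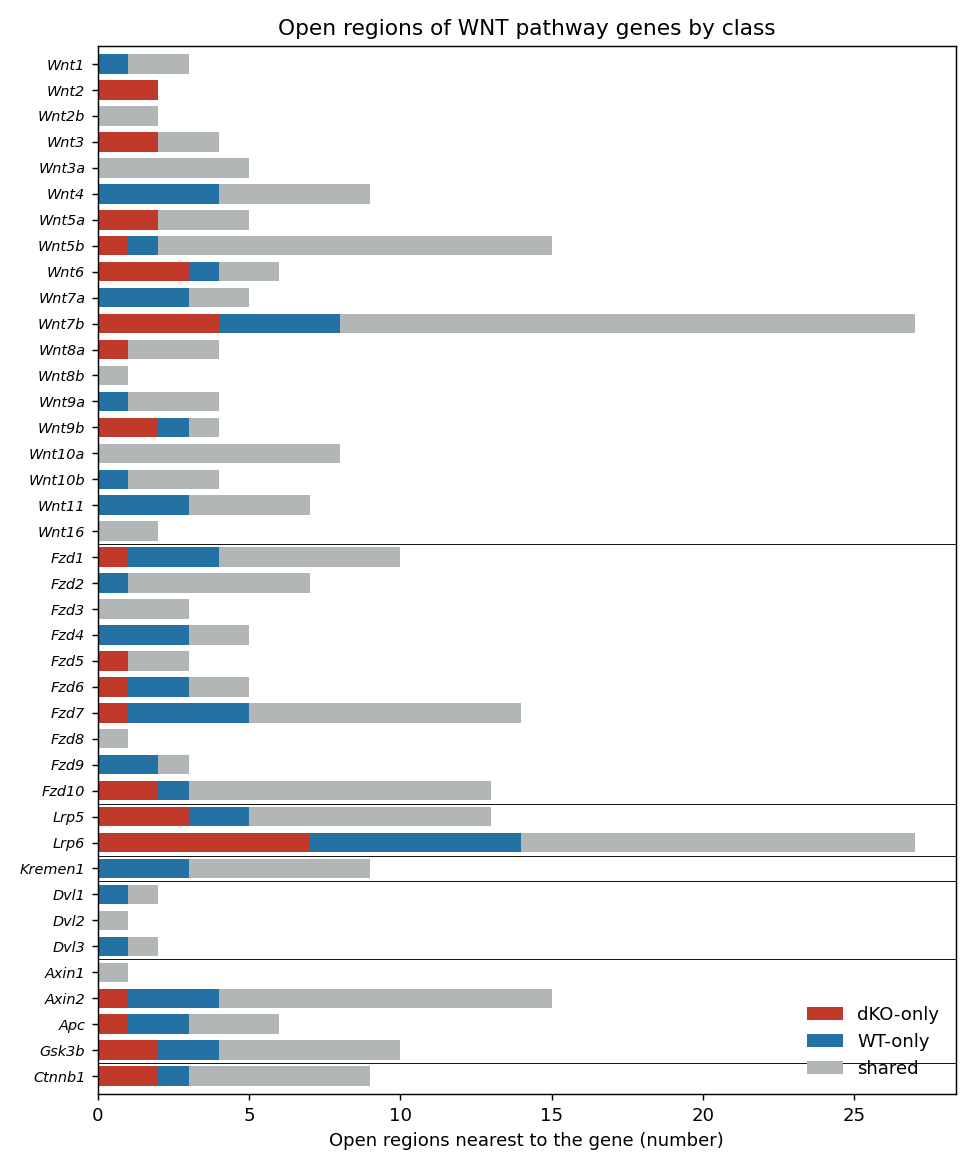
Number of open regions nearest to each of the 40 WNT pathway genes (horizontal axis), stacked as dKO-only (red), WT-only (blue) and shared (grey), with lines between roles from ligands at the top to beta-catenin at the bottom. Wnt7b and Lrp6 have 27 regions each, and Wnt2 is the gene whose regions are all dKO-only.

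By gene, dKO-only regions outnumbered WT-only ones at 10 of the 40, WT-only ones outnumbered dKO-only at 17, and 13 had equal numbers. These were 25% of the WNT genes towards dKO, against 16.4% of all genes with a region, and 42.5% towards WT, against 33.9%. A difference of 2 or more regions was seen at 4 genes towards dKO (Wnt2, Wnt3, Wnt5a and Wnt6), or 10%, against 5.41% of all genes with a region. Towards WT there were 9 (Wnt4, Wnt7a, Wnt11, Fzd1, Fzd4, Fzd7, Fzd9, Axin2 and Kremen1), or 22.5%, against 14% of all genes. The WNT genes also had more regions per gene than the background genes. In 9 genes, 22.5% of the WNT genes against 43.9% of all genes with a region, every region was shared: Wnt2b, Wnt3a, Wnt8b, Wnt10a, Wnt16, Fzd3, Fzd8, Axin1 and Dvl2.

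The ligand genes held 117 regions, of which 17 were dKO-only (14.5%, 9.27 to 22.0), 20 WT-only (17.1%, 11.3 to 24.9) and 80 shared. These intervals held the background shares of 12.8% and 21.2%, so the counts do not set the ligands apart from the series. Their differences lay in both directions: of 19 ligand genes, 6 had more dKO-only and 6 more WT-only regions. Over all genes with a region, 16.4% had more dKO-only and 33.9% more WT-only regions.

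Wnt2 (gene 22413, chromosome 6, 17985474 to 18032772, mm10), a canonical ligand known for lung development in the mouse, had 2 regions and both were dKO-only. The first (18030347 to 18030747) spanned the RefSeq start, with its summit 7 bp downstream of it, and had a dKO pileup of 12, a fold of 3.49 and a −log10 q of 3.35. The second (18031801 to 18032016) lay 1.5 kb upstream with a pileup of 14 and a fold of 4.02. Both were weak, at the 5.78 and 12.5 percentiles of the dKO list by −log10 q, and the nearest WT summit was 106.9 kb from the first. Neither passed a stricter q value limit of 1e-05.

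Wnt3 and Wnt9b, canonical ligands known for gastrulation and for kidney development, are neighbours on chromosome 11 whose gene bodies overlap by 1.1 kb, and together they had 4 dKO-only, 1 WT-only and 3 shared regions. Wnt3 (gene 22415, 103774175 to 103818021) had 2 dKO-only, 0 WT-only and 2 shared regions, all inside the gene. The region 27.1 kb downstream of its start (103800960 to 103801589) was the strongest dKO-only region of all 40 genes, with a dKO pileup of 38, a fold of 10.4 and a −log10 q of 28.0, the 61.0 percentile of its list. The nearest WT summit was 6 kb away. The region 6.2 kb downstream (103780284 to 103780560) had a dKO pileup of 24 and a fold of 6.71. A further dKO-only region (103773638 to 103774329) covered the Wnt3 promoter and start shown above, with a pileup of 27 and a fold of 5.36, but its summit lay just inside Wnt9b and it was counted there. The shared regions at 21.4 kb and 35.7 kb downstream had dKO pileups of 35 and 25 (fold 7.36 and 6.97) and WT pileups of 22 and 20 (fold 3.66 and 3.34). Wnt9b (gene 22412, 103727362 to 103775272) had 2 dKO-only, 1 WT-only and 1 shared region, and its own promoter was open in both lists, with a pileup of 48 in dKO (fold 11.2) and 44 in WT (fold 7.16).

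Wnt5a (gene 22418, chromosome 14, 28504543 to 28527448), the prototype of noncanonical WNT ligands, had 2 dKO-only, 0 WT-only and 3 shared regions. The dKO-only regions lay 44.3 kb and 48.1 kb from the gene, with dKO pileups of 22 and 12 and folds of 6.17 and 3.32. With genes taken within 20 kb the difference at Wnt5a was 0. At a q value limit of 1e-05 it was −1 (WT-only minus dKO-only). A shared region 14.8 kb from the gene was the strongest of the locus, with a pileup of 152 in dKO (fold 13.3) and 205 in WT (fold 12.01). Wnt6 (gene 22420, chromosome 1, 74754342 to 74785322), a ligand of epithelia, had 3 dKO-only, 1 WT-only and 2 shared regions. Its dKO-only regions had pileups of 19, 24 and 34 and folds of 5.36, 4.18 and 2.95, and its WT-only region, 11.8 kb upstream of the start, had a pileup of 51 and a fold of 8.27. That region stood 3.2 kb from the dKO-only region 8.6 kb upstream of the start. Next to Wnt6, at a distance of 6.7 kb, lies Wnt10a (gene 22409, chromosome 1, 74792019 to 74804176), a ligand whose loss impairs teeth, hair and other skin appendages. All 8 of its regions were shared, with dKO pileups from 63 to 127 and WT pileups from 51 to 320.

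Wnt4 (gene 22417, chromosome 4, 137277635 to 137299501), a ligand known for kidney and female gonad development, leaned furthest towards WT, with 0 dKO-only, 4 WT-only and 5 shared regions. The WT-only regions lay 46, 21.9 and 5.5 kb upstream and 9.8 kb downstream of the start, with WT pileups of 40, 37, 28 and 71 and folds of 6.52, 6.04, 2.45 and 2.75. The region 46 kb upstream (137231411 to 137232002) had no dKO summit within 30.9 kb, whereas the region 5.5 kb upstream stood 2.3 kb from one. Shared regions flanked the start at 0.4 kb upstream, with a pileup of 43 in dKO (fold 4.40) and 121 in WT (fold 4.54), and at 0.6 kb downstream, with 44 in dKO (fold 3.19) and 123 in WT (fold 3.04).

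Wnt7a (gene 22421, chromosome 6, 91363981 to 91411353), a ligand known for dorsal limb patterning, had 0 dKO-only, 3 WT-only and 2 shared regions, all of low height. The WT-only regions had pileups of 21, 22 and 27 and folds of 3.50, 3.66 and 4.14, and lay 77.2, 76 and 1.7 kb downstream of the start. Wnt11 (gene 22411, chromosome 7, 98835084 to 98854747), a noncanonical ligand, had 0 dKO-only, 3 WT-only and 4 shared regions. Its WT-only regions were among the weakest of the WT list, with pileups of 20, 17 and 18 and percentiles of 6.04, 2.40 and 3.77, and all had a −log10 q below 5. Both Wnt11 starts were open in both genotypes. The first, whose upstream sequence is printed above, had a pileup of 56 in dKO (fold 4.16) and 186 in WT (fold 4.36), and the second 118 in dKO (fold 8.67) and 274 in WT (fold 6.20). A shared region 19.8 kb upstream of the first start (98814929 to 98818109) was 1 peak in WT and 3 peaks in dKO.

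Wnt7b (gene 22422, chromosome 15, 85535437 to 85581821), a ligand made by follicle epithelium and known to promote hair growth in the mouse, had the most regions of the ligands: 4 dKO-only, 4 WT-only and 19 shared. Beyond its higher-coordinate end stood a run of 15 regions between 17.4 kb and 75.8 kb from the gene, of which 1 was dKO-only, 4 were WT-only and 10 shared. Inside the gene 2 of 10 regions were dKO-only and 0 WT-only. The strongest region of the run (85634196 to 85635303) had a pileup of 174 in dKO (fold 11.3, 91.4 percentile of its list) and 510 in WT (fold 11.9, 96.7 percentile). The single-genotype regions here were lower: the WT-only folds of the run were 3.11, 2.22, 3.48 and 3.37, and the dKO-only fold was 2.18. The strongest dKO-only region of Wnt7b (85519321 to 85519855) lay on the other side of the gene, at 15.7 kb, with a pileup of 40 and a fold of 7.39. Wnt5b (gene 22419, chromosome 6, 119432531 to 119544824), a noncanonical ligand, had 15 regions, 1 dKO-only, 1 WT-only and 13 shared, all but 1 inside the gene. Its strongest (119478659 to 119480810) had a pileup of 201 in dKO (fold 10.7) and 475 in WT (fold 9.90).

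Of the other ligands, Wnt9a (gene 216795, chromosome 11, 59306849 to 59333552) carried the strongest WT-only region of all 40 genes (59345952 to 59347043), 39.4 kb downstream of its start. It had a WT pileup of 93, a fold of 9.73 and a −log10 q of 59.2, the 63.9 percentile of the WT list, and the nearest dKO summit was 11 kb away. Wnt9a had 0 dKO-only, this 1 WT-only and 3 shared regions, and its neighbour Wnt3a, a canonical ligand 16.1 kb away, had 5 shared regions. The neighbours Wnt1 and Wnt10b, the second known for promoting hair growth, had 0 dKO-only, 2 WT-only and 5 shared regions together. Wnt8a had 1 dKO-only and 3 shared regions. Wnt2b and Wnt16 had 2 shared regions each and Wnt8b had 1.

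**Figure D2:**
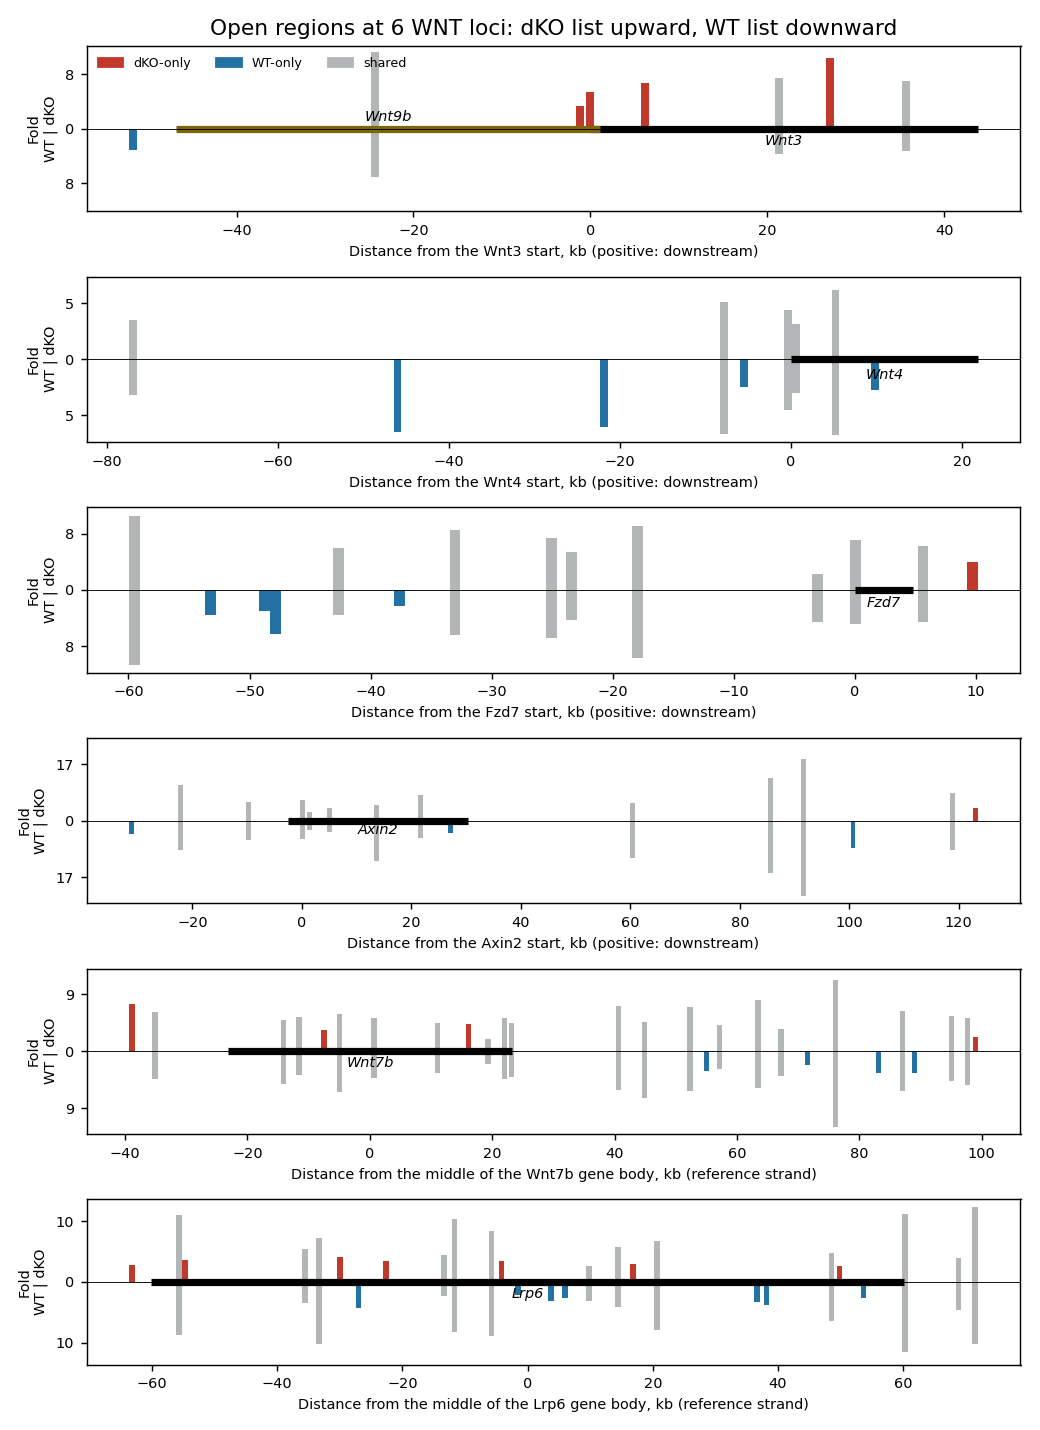
Regions at Wnt3 with Wnt9b, Wnt4, Fzd7, Axin2, Wnt7b and Lrp6, by distance in kb from the gene start or, for Wnt7b and Lrp6, from the middle of the gene body. Bars give the deposited fold of each region's strongest peak, upward in the dKO list and downward in the WT list, with dKO-only red, WT-only blue and shared grey, thick lines marking gene bodies, and bar width not to scale. Red bars stand around the Wnt3 start, and blue bars stand upstream of Wnt4 and of Fzd7.

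The Frizzled genes, which encode the membrane receptors for WNT ligands, held 64 regions, with 6 dKO-only (9.38%, 4.37 to 19.0), 16 WT-only (25%, 16.01 to 36.8) and 42 shared. Of the 10 genes, 2 had more dKO-only and 6 more WT-only regions, against 16.4% and 33.9% of all genes with a region. The intervals of the region shares held the background shares of 12.8% and 21.2%, so the region counts do not set the receptors apart from the series.

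Fzd7 (gene 14369, chromosome 1, 59482147 to 59486955) had the most regions of the receptors, 1 dKO-only, 4 WT-only and 9 shared. The 4 WT-only regions lay upstream, between 37.6 kb and 53.2 kb from the start, with WT pileups of 46, 32, 55 and 70 and folds of 3.63, 2.95, 6.26 and 2.26. Among them, at 42.6 kb upstream, stood a shared region with a pileup of 27 in dKO (fold 5.95) and 32 in WT (fold 3.56). A shared region 59.5 kb upstream (59422205 to 59423214) had a pileup of 84 in dKO (fold 10.5, 77.7 percentile) and 468 in WT (fold 10.7, 94.98 percentile). The promoter region had a pileup of 174 in dKO (fold 7.17) and 371 in WT (fold 4.83). With genes taken within 20 kb, Fzd7 lost its WT-only regions and was left with the dKO-only region 9.7 kb downstream of the start, so its lean to WT lies far from the gene.

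Fzd4 (gene 14366, chromosome 7, 89404366 to 89410110), a receptor that also binds the ligand norrin, had 0 dKO-only, 3 WT-only and 2 shared regions, all between 24.2 kb and 44.2 kb from the gene body. The first WT-only region (89433228 to 89434658) was the second strongest of all 40 genes, with a pileup of 97, a fold of 6.07 and a −log10 q of 42.5, and stood 3.5 kb from the nearest dKO summit. The other two had pileups of 48 and 26. The shared regions had pileups of 27 and 36 in dKO (fold 6.96 and 9.92) and 118 and 172 in WT (fold 6.14 and 11.1). The promoter itself was open in both lists, with a pileup of 166 in dKO (fold 8.89) and 365 in WT (fold 8.46), but its summit was nearer to the gene Tmem135 and it was counted there.

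Fzd1 (gene 14362, chromosome 5, 4753839 to 4758216), a close relative of Fzd7, had 1 dKO-only, 3 WT-only and 6 shared regions. Its promoter region (4756591 to 4759001) was among the strongest of all members, with a pileup of 453 in dKO (fold 10.1, 99.4 percentile) and 764 in WT (fold 7.33, 97.5 percentile). The dKO-only region, 95.7 kb from the gene body, was the second strongest of its class, with a pileup of 34 and a fold of 9.29, and a WT-only region with a pileup of 19 stood 3.3 kb from it. Fzd9 (gene 14371, chromosome 5, 135248938 to 135251047) had 0 dKO-only and 2 WT-only regions, with pileups of 29 and 38, at 7.5 and 13.3 kb upstream of its start. Fzd10 had 2 dKO-only, 1 WT-only and 10 shared regions, Fzd2 had 0, 1 and 6, Fzd5 had 1, 0 and 2, and Fzd6 had 1, 2 and 2 in the same order. Fzd3 had 3 shared regions and Fzd8 had 1, a region of 3262 bp at its gene end with a pileup of 378 in dKO (fold 8.07) and 722 in WT (fold 6.46).

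The co-receptor genes Lrp5 and Lrp6, whose products are needed for the canonical branch, had the highest share of dKO-only regions of the roles with 10 or more regions, 10 of 40 (25%, 14.2 to 40.2), beside 9 WT-only (22.5%, 12.3 to 37.5) and 21 shared. The dKO-only interval did not reach down to the 12.8% of the series, but 40 regions of 2 genes are not independent and the difference was not tested. Lrp6 (gene 16974, chromosome 6, 134446476 to 134566913) had 7 dKO-only, 7 WT-only and 13 shared regions. Most of them lay inside the gene, where the classes were intermixed: 6 dKO-only, 7 WT-only and 10 shared. Its single-genotype regions were weak. The strongest dKO-only one (134502280 to 134503070) had a pileup of 59, a fold of 3.40 and the 41.0 percentile, and the strongest WT-only one had a pileup of 36, a fold of 4.37 and the 25.3 percentile. The region at its higher-coordinate end (134565753 to 134567638) had a pileup of 150 in dKO (fold 11.2) and 390 in WT (fold 11.6). Lrp5 (gene 16973, chromosome 19, 3584825 to 3686585) had 3 dKO-only, 2 WT-only and 8 shared regions, with dKO-only folds of 2.94, 3.49 and 2.24 and WT-only folds of 2.90 and 2.43. With peaks limited to q values up to 1e-05 the lean of the pair turned: WT-only minus dKO-only regions made up 17.24% of regions, in place of −2.5%.

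Kremen1 (gene 84035, chromosome 11, 5191551 to 5261713), a receptor for Dickkopf proteins that removes LRP6 from the cell surface, had 0 dKO-only, 3 WT-only and 6 shared regions. The WT-only regions lay inside the gene, with pileups of 20, 45 and 90 and folds of 3.34, 3.97 and 2.11, and the last stood 0.8 kb from a dKO summit. The shared region at its higher-coordinate end had a pileup of 121 in dKO (fold 9.02) and 342 in WT (fold 8.05).

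The genes inside the cell held mostly shared regions. The Dishevelled genes, which pass the signal from Frizzled to Axin, had 0 dKO-only, 2 WT-only and 3 shared regions, and the 3 shared ones were their promoters. The strongest was that of Dvl3, with a pileup of 211 in dKO (fold 14.8) and 455 in WT (fold 12.99). The destruction complex genes had 32 regions, 4 dKO-only (12.5%, 4.97 to 28.1), 7 WT-only (21.9%, 11.02 to 38.8) and 21 shared. Axin1 had 1 region, shared, inside the gene. Apc, the scaffold that holds beta-catenin, had 1 dKO-only, 2 WT-only and 3 shared regions, the strongest at a gene end with a pileup of 271 in dKO (fold 13.5) and 546 in WT (fold 11.1). Gsk3b, the kinase that marks beta-catenin, had 2 dKO-only, 2 WT-only and 6 shared regions, and its promoter (chromosome 16, 38088186 to 38089968) was the strongest region of all 40 genes in both lists, with a pileup of 551 in dKO (fold 9.95) and 1041 in WT (fold 7.65). Ctnnb1 had 2 dKO-only, 1 WT-only and 6 shared regions. Its strongest shared region in the WT list, 14.1 kb upstream of the start, had a pileup of 107 in dKO (fold 14.9) and 520 in WT (fold 15.5).

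Axin2 (gene 12006, chromosome 11, 108917828 to 108950783), a scaffold of the destruction complex that is itself a direct WNT target and a common readout of the pathway, had 1 dKO-only, 3 WT-only and 11 shared regions over 161.6 kb nearest to it. Its promoter, printed above, was open in both genotypes, with a pileup of 66 in dKO (fold 6.28) and 133 in WT (fold 5.56). The region with the highest fold of the locus lay 91.6 kb downstream of the start (109011647 to 109012087), with a pileup of 101 in dKO (fold 18.6, 87.7 percentile) and 484 in WT (fold 22.8, 99.1 percentile). A shared region 13.7 kb downstream, inside the gene, had a pileup of 16 in dKO (fold 4.56, 19.2 percentile) and 96 in WT (fold 12.2, 68.02 percentile). The WT-only regions had pileups of 27, 22 and 51 and lay 31.1 kb upstream and 27.2 and 100.7 kb downstream, and the dKO-only region, 123.1 kb downstream, had a pileup of 23.

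Promoters were the most alike part of these loci. Of the 27 genes with a RefSeq promoter window (250 bases before to 50 after the start), 20 had a peak of both lists over it (74.1%, 55.3 to 86.8), against 57.3% of all genes with such a window. A peak of the dKO list alone lay over 3 (Wnt2, Wnt3 and Wnt6), where 1.1% of all genes had one, and a peak of the WT list alone over 2 (Wnt4 and Wnt7a), where 1.36% had one. At Wnt6, Wnt4 and Wnt7a these were edges of regions that were shared: with the window widened to 1 kb on either side of the start, 24 genes had peaks of both lists, and Wnt2 and Wnt3 were the 2 with a dKO peak alone. No WT peak came closer than 106372 bp to the Wnt2 window and 20755 bp to the Wnt3 window. Wnt8b had no peak in either window, and Wnt10b had none in the narrow one, where the nearest peak ended 27 bp away. Of the 13 genes without a window, 12 had peaks of both lists within 1 kb of a gene end, and Axin1 had none. No share over all genes was computed for the wider window or for gene ends, so these counts cannot be called unusual. Counted as regions, 25 touched the promoter window of the gene they were counted under: 1 was dKO-only (4%), 0 were WT-only and 24 were shared. The dKO-only region over the Wnt3 promoter was counted under Wnt9b and so stands among the gene body regions. Inside gene bodies 22 of 118 regions were dKO-only (18.6%, 12.6 to 26.6) and 27 WT-only (22.9%, 16.2 to 31.2), and outside them 16 of 133 were dKO-only (12.03%, 7.54 to 18.6) and 31 WT-only (23.3%, 16.9 to 31.2). Over all genes the promoter shares were 1.77% dKO-only and 1.84% WT-only, the gene body shares 14.3% and 25.6%, and the outside shares 15.2% and 22.7%. There a region touching the window of any gene counted as promoter, an unlike rule. Regions at the ends of the 13 WNT genes without a window were also counted as gene body or outside. The WNT and all-gene shares by position are therefore not directly comparable.

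In sequence, the open promoters were rich in CpG. The 23 windows with peaks of both lists held a median of 32 CpG (range 7 to 58), the Wnt2 window 27 and the Wnt3 window 24, and the 3 with no peak 4, 6 and 18. Over all genes the medians were 22 in 11799 windows with peaks of both lists and 3 in 8880 windows with none. TTGGC, on either strand, was in 11 of the 31 windows of these genes (35.5%) and in 47.9% of 21263 windows of all genes. The full palindrome, TTGGC followed after 5 bases by its reverse complement, and so overlapping the first motif, was in 0 of 31 windows and in 0.0329% of all. CTTTGAT was in 2 of the 31 (6.45%), those of the first Wnt11 start and of 1 Wnt5b start, against 3.22% of all, and CTTTGAA was in 0 against 4.54%. These are letters found in a window, not bound sites, and they were not searched for in regions away from promoters.

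Single-genotype regions were the weaker ones. The dKO-only regions had a median percentile of 20.1 within the dKO list (range 1.51 to 61.0), and shared regions one of 55.4 in that list. The WT-only regions had a median percentile of 18.1 within the WT list (1.95 to 63.9), and shared regions one of 59.1. Peaks of all genes had the same order, so it is not particular to the WNT genes. Their medians were 18.2 for dKO-only and 58.5 for shared peaks in the dKO list, and 21.5 for WT-only and 61.7 for shared peaks in the WT list. In the stronger 50% of their list stood 3 of 39 dKO-only regions (at Wnt3, Fzd1 and Wnt7b) and 2 of 58 WT-only regions (at Wnt9a and Fzd4). For peaks of all genes these shares were 8.53% of dKO-only and 11.96% of WT-only peaks, against 7.69% and 3.45% for the WNT genes. When WT pileup and background were scaled down to the dKO background, 2 of the 58 WT-only regions fell below the lowest −log10 p of the dKO list, a fixed scaling that adds no counting noise. The part of depth in the WT-only count was not tested further.

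**Figure D3:**
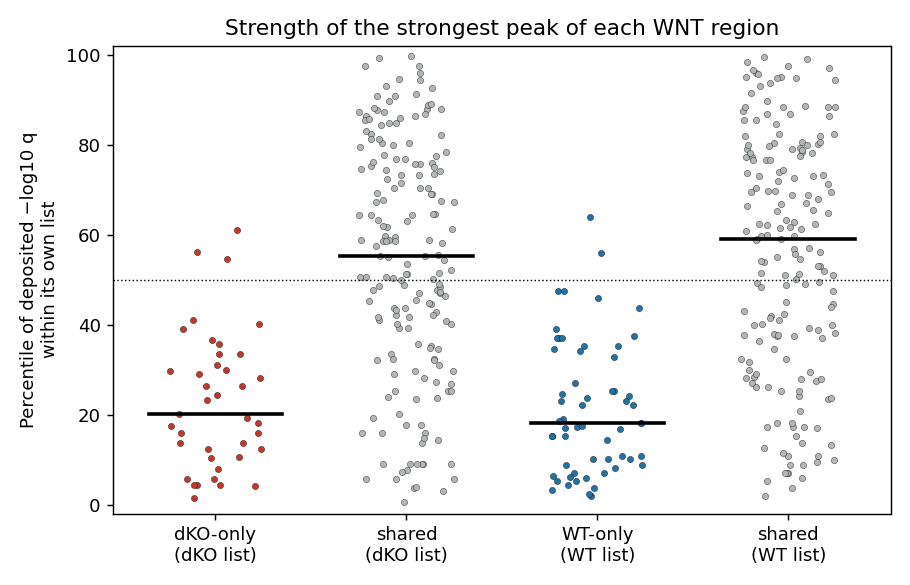
Percentile of the deposited −log10 q of each region's strongest peak within its own list, for dKO-only regions and shared regions in the dKO list and for WT-only regions and shared regions in the WT list. Points are the 276 regions (shared ones plotted once per list), bars are medians (20.1, 55.4, 18.1 and 59.1), and the dotted line is the middle of a list, above which 3 dKO-only and 2 WT-only points lie.

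The other genes of the pathway were taken as 5 lists of 60 genes, 58 with at least 1 region. TCF/LEF factors and TLE corepressors, the nuclear end of the pathway, had 19 dKO-only (11.7%) and 26 WT-only (16.05%) of 162 regions, with Tle4 at 2 dKO-only and 7 WT-only and Tcf7l2 at 5 and 9. LGR receptors, R-spondins and their ligases, which set the amount of Frizzled at the membrane, had 9 dKO-only (10.3%) and 21 WT-only (24.1%) of 87, with Lgr6 at 1 and 6 and Lgr4 at 1 and 5. Secreted inhibitors had 20 dKO-only (14.3%) and 38 WT-only (27.1%) of 140. There 2 genes held most of the single-genotype regions: Dkk2, a Dickkopf antagonist of LRP6, had 10 dKO-only, 0 WT-only and 1 shared region, and Trabd2b, a protease that inactivates WNT ligands, had 4, 23 and 34. The other 12 inhibitor genes had 6 dKO-only and 15 WT-only regions, with Sfrp1 at 2 and 6. Secretion and accessory genes had 6 dKO-only (7.5%) and 16 WT-only (20%) of 80, with the Dishevelled antagonist Nkd1 at 0 and 4. Noncanonical genes had 23 dKO-only (11.1%) and 50 WT-only (24.04%) of 208. Of these Daam1 had 0 and 18, Vangl1 2 and 6, and Ror2 6 and 3. Without a replicate check none of these lists can be said to differ from the 40 genes.

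**Figure D4:**
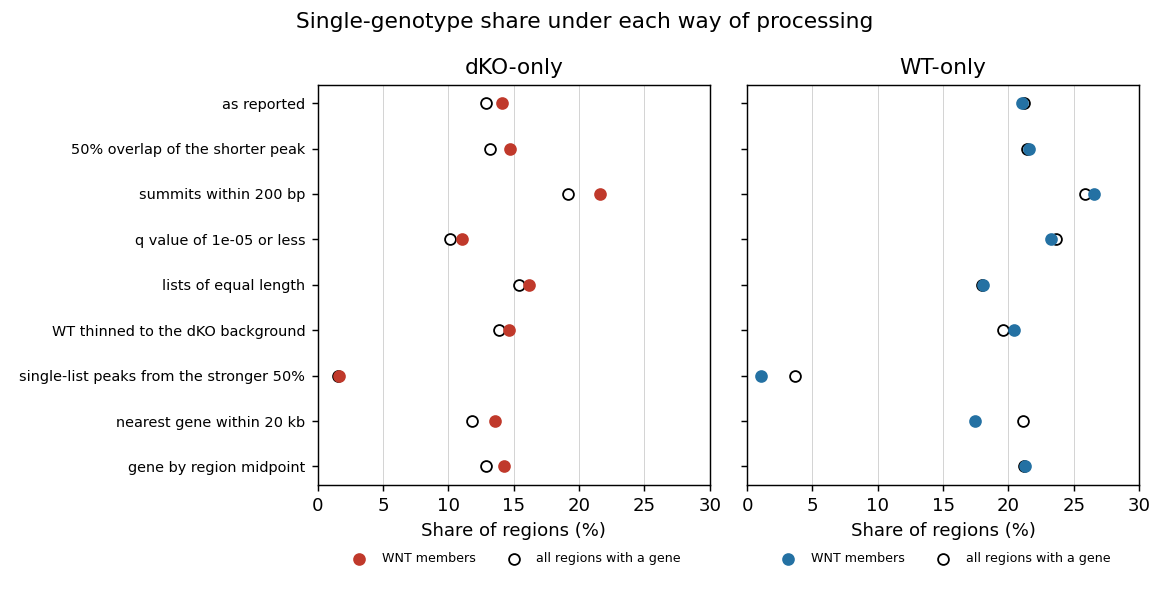
Share of regions (%) that were dKO-only (left) and WT-only (right) for the WNT genes (filled) and for all regions with a gene (open), under the processing as reported and 8 alternatives. The WNT values run from 1.63% to 21.6% dKO-only and from 1.09% to 26.6% WT-only. Within 20 kb the WNT WT-only share was 17.5% against 21.1% for all regions, and with the stronger 50% it was 1.09% against 3.64%.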

How the data were processed

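Each genotype's mice (2) share 1 deposited peak table per the labels. The submitters' processing notes name, with no role or order, the builds mm10 and GRCm38 and the tools MACS2, Picard and Bowtie2 2.2.9. How mice were combined, reads shifted or duplicates treated is not given in the sources used here. Summit pileup is the signal that the authors deposited, unscaled for depth. The fold column, a ratio deposited by the authors, divides pileup plus 1 by local background plus 1. Headers of the −log10 columns deposited by the authors were damaged. These were told apart from their order and a recalculated Poisson p, which lay within 0.001 for 99.997% of dKO and 99.98% of WT peaks with −log10 p below 250. Neither list held a −log10 q under 1.30.

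With Python 3.11.15, pandas 2.3.3 and scipy 1.17.1, peaks were assigned by summit to the nearest protein-coding gene body of the RefSeq table for GRCm38.p6 within 100 kb (ties to the shorter gene), and a region was counted under each gene its peaks were nearest to. Mitochondrial peaks (3 dKO, 5 WT) were left out. Joining and assignment were checked on simulated lists. No p-value was computed. Described one by one were genes with a difference of 2 or more single-genotype regions, the 5 with most regions, those with a promoter peak in 1 list, the 4 strongest regions per class, and up to 2 genes per other list and direction with a difference of 3 or more. Members and lists were chosen with earlier results of these data known. Promoter sequences are from RefSeq (GRCm38.p6). Alternatives were 50% overlap, summit distances up to 200 bp, a q limit of 1e-05, equal list lengths, WT thinned to the dKO background, single-list peaks from the stronger 50%, genes within 20 kb, midpoints in place of summits and a promoter window of 1 kb on either side.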

Additional observations from a re-analysis of the deposited data

How the results depend on the processing

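In all, 130 values were recomputed for the region counts, role groups, gene counts, promoters, positions and other pathway lists. Of these, 112 did not reverse direction and stayed within counting error or 1.5 times the reported count. A fall to 0 was not taken as a reversal. A net share is the WT-only percent of regions less the dKO-only percent (WT-only minus dKO-only). Its counting error was 10.18 points for ligands, 21.34 for LRP genes and 20.05 for destruction complex genes. These exceed the reported net shares of 2.56%, −2.5% and 9.38%, so staying within them shows little. With single-list peaks from the stronger 50%, dKO-only regions numbered 3 and WT-only regions 2, the net share turned to −0.54% (reported 6.88%) and that of ligands to −1.2% (reported 2.56%). Those of Frizzled genes and of secreted inhibitors became 0, that of noncanonical genes 0.7, and the numbers of genes with a difference of 2 or more were 0 towards dKO and 0 towards WT. Fewer regions are counted there by construction. With equal list lengths the net share turned to −4.46% for ligands and −3.92% for TCF/LEF and TLE genes. For regions with summits inside gene bodies the net share turned from 2.99% to −3.1%. Unlike the gene body regions counted above, that set includes promoter regions. Within 20 kb it was −3.19% for ligands and WT-only regions numbered 36. At a q value of 1e-05 or less it was 17.24% for LRP genes, and 2 genes leaned to dKO. With summits within 200 bp, dKO-only regions numbered 66. With the wider promoter window, 2 genes had a peak in 1 list alone. Fzd1 turned to −1 with the stronger 50% and Fzd7 to −1 within 20 kb. The cause of the other changes was not tested. A difference of 2 or more towards dKO was kept in 7 of 8 alternatives at Wnt3, 6 at Wnt2 and 4 at Wnt5a. One towards WT was kept in 7 at Wnt4 and 4 at Wnt11. Most single-genotype regions lie in the weaker 50% of their list, and 56 of the 58 WT-only regions passed when WT was scaled to the dKO background. The pass mark was the lowest −log10 p of the dKO list and the scaling added no counting noise. It therefore cannot show the part of depth in the WT-only count, which was not tested. No paired analysis was possible because each genotype has 1 list and the mice share no replicate numbers.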
